A study of Mus musculus with 8 samples.

Results

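The proteasome genes were followed across 8 arrays as all probes, control spots left out, whose gene name on the array begins with Psma, Psmb, Psmc, Psmd, Psme, Psmf or Psmg and a digit. The name rule found 68 of 41174 probes and 44 of 27573 gene names. Of the 44 names, 43 had a probe with enough signal to be tested, and the exception was the testis alpha subunit Psma8, which was not well above background on any array. One name that the rule takes in, Psmc3ip, belongs to a recombination factor of meiosis and not to the proteasome, so 42 tested genes of the proteasome itself remained. No name beginning with Psmg was on the array.

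The cells were cultured lymph node stromal cells (LNSC) of BALB/c mice, the non-haematopoietic fibroblast-like cells that form the scaffold of a lymph node. They were transfected with 400 pmol of an siRNA against Eif4g3, a translation initiation scaffold of the eIF4G family, or of a control siRNA with Lipofectamine 2000, and were harvested after 48 h. For each siRNA 7 plates were transfected, and RNA came either from whole lysates (total RNA) or from the pooled heavy polysome fractions of a sucrose gradient made from pooled cells, called polysomal RNA here. On each of 4 total RNA arrays and 4 polysomal arrays, 200 ng of RNA was labelled per sample, with Eif4g3 siRNA cells in Cy5 and control siRNA cells in Cy3. A log2 ratio below 0 therefore means a lower signal after Eif4g3 siRNA. Dyes were never swapped, so a dye preference of a probe and an effect of the siRNA cannot be told apart within a fraction. The labels do not say whether replicates were separate cultures, and p-values then measure the spread between these samples, which may be technical. In RNA from whole cultures, fewer cells of a type and less RNA per cell cannot be told apart.

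The 26S proteasome degrades proteins tagged with ubiquitin. Its 20S core is a barrel of alpha and beta rings whose beta subunits cut the substrate, and its 19S cap has a base of ATPases that unfold the substrate and a lid that removes ubiquitin. Under interferon, and constitutively in many immune cells, the catalytic subunits Psmb5, Psmb6 and Psmb7 are replaced in new particles by Psmb8, Psmb9 and Psmb10, and the activator PA28 (Psme1 and Psme2) is induced with them, which favours peptides for MHC class I. The stromal cells of lymph nodes respond to interferon and present antigen themselves.

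The siRNA target was lower on every array. The Eif4g3 log2 ratio was -2.49, -1.81, -1.94 and -2.05 in total RNA (arrays 1 to 4) and -3.16, -2.24, -2.43 and -1.999 in polysomal RNA. Arrays of a fraction were not alike: the mean correlation of an array's log2 ratios with the others of its fraction ran from 0.289 to 0.566, and it was lowest for polysomal arrays 1 and 3 and total RNA array 4 (0.289, 0.318 and 0.326). Those 3 arrays also had the widest log2 ratios, with SDs of 0.523, 0.490 and 0.470 against 0.284 to 0.398 on the others. Polysomal arrays 2 and 4 were the most alike (r = 0.883, the next pair 0.614), and the labels do not say whether they share cells. Averaged into 1 sample, they left 3% of all genes past the threshold in polysomal RNA, against 8.91% with 4 arrays. Their levels were not the same, with Psmb8 at 10.55 and 12.19 (log2 signal, control siRNA cells). The arrays lay on 5 slides, each of which held 1 fraction. Of the fibroblast markers 10 of 11 were measured, and of endothelial and epithelial markers 1 of 5 (Kdr) and 2 of 4 (Krt8 and Krt18). The blood cell markers Ptprc, Adgre1, Cd79a and Itgax were not well above background on any array, and the myeloid markers Csf1r, Cd68, Lyz2 and Trem2 were well above background on all arrays.

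Few proteasome transcripts passed the test for an effect of Eif4g3 knockdown, which does not show that the others were unchanged. In polysomal RNA, Psme4 and Psmd12 fell, and Psmc3ip rose. In total RNA no member passed an adjusted p of 0.05. Of the 43 names tested, 3 passed in polysomal RNA, where 8.91% of all 14483 tested genes passed (4.03% lower and 4.87% higher), and 0 passed in total RNA, where 4.38% of all genes did. In limma's unadjusted test, 9 of 43 names were under 0.05 in polysomal RNA and 10 in total RNA, against 25.4% and 22.1% of all genes. With 4 arrays a fraction, the 95% interval of a proteasome gene's log2 ratio reached 0.33 to either side at the median and 0.23 to 0.60 over the 42 genes.

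**Figure D1:**
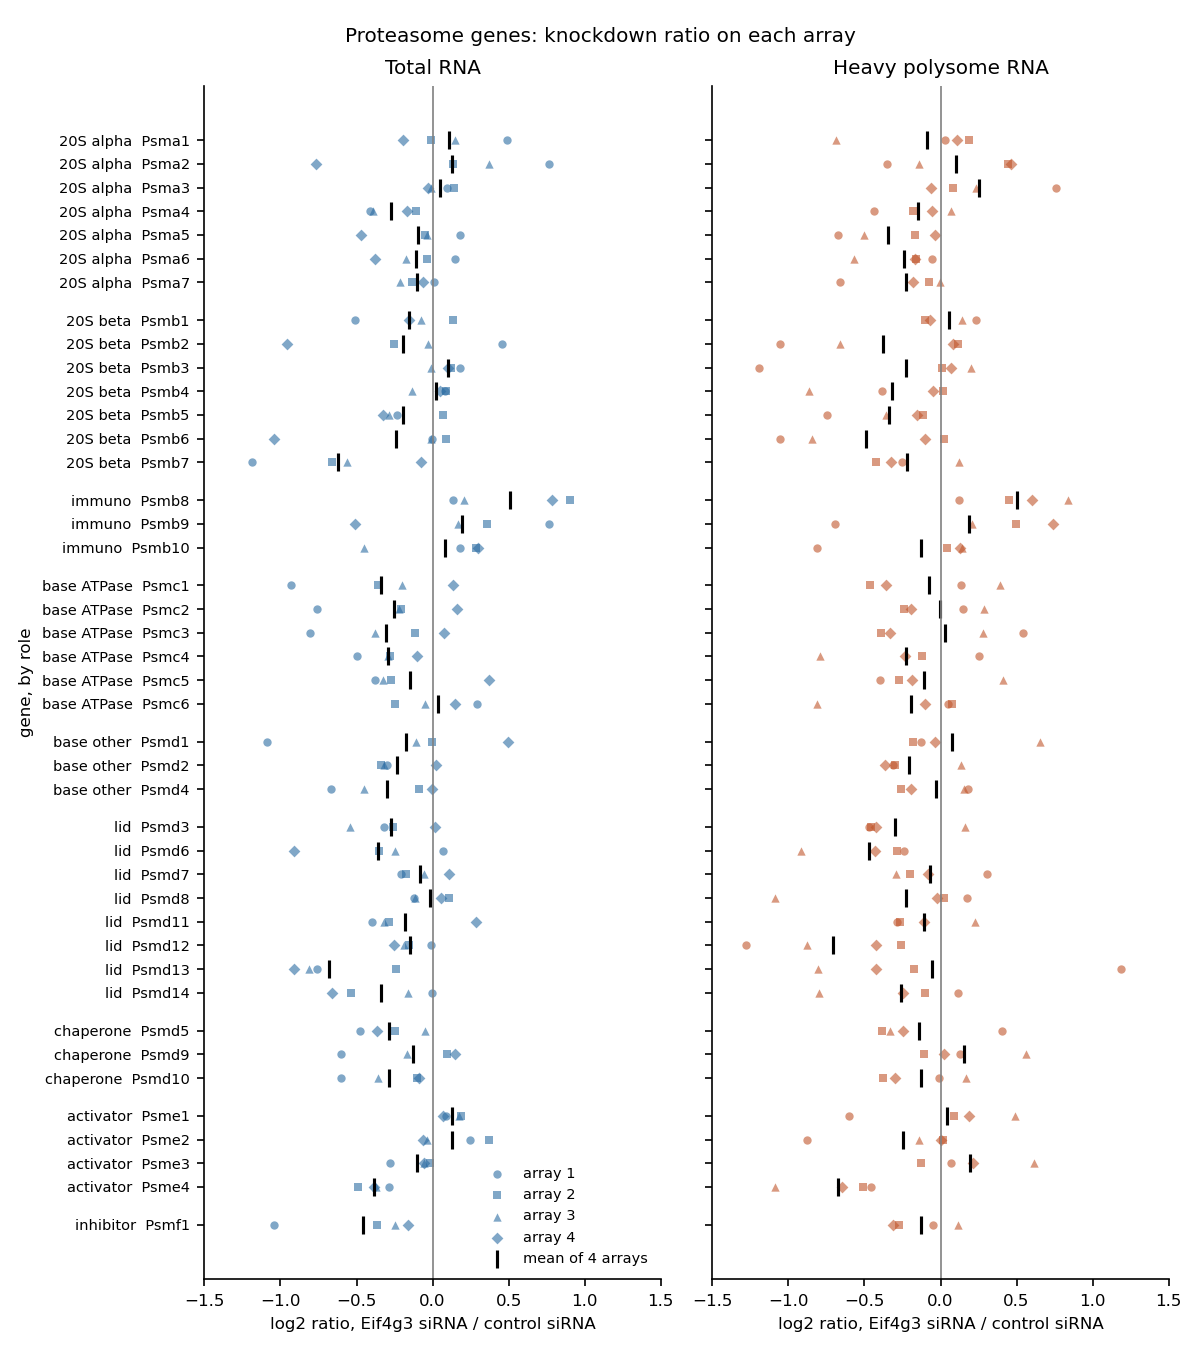
Log2 ratio of Eif4g3 siRNA over control siRNA (x axis) for each of the 42 proteasome genes (y axis, grouped by role) on the 4 total RNA arrays (blue) and the 4 polysomal arrays (orange); point shape gives the array and the black bar the mean of 4 arrays. Psme4 and Psmd12 lie left of 0 and Psmb8 right of 0 on all 8 arrays.

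Psme4 encodes the large activator PA200, which caps the 20S core. Its log2 ratio was -0.29, -0.49, -0.37 and -0.38 in total RNA and -0.46, -0.51, -1.08 and -0.65 in polysomal RNA. All 8 arrays were below 0. The mean in polysomal RNA was -0.67 ± 0.29 (SD, n = 4), 1.59-fold lower (adjusted p = 0.00791). The total RNA mean was -0.38 ± 0.08 and did not pass (adjusted p = 0.0809). With polysomal arrays 2 and 4 averaged the call held (-0.71, adjusted p = 0.0350). The polysomal call was kept without each array in turn (adjusted p from 0.0103 to 0.0452) and lost when that fraction was fitted alone (0.0578) or arrays were centred on the median without loess (0.132 and 1.00). The probe lies at chr11:30780168-30780227 on the plus strand (mm8, the build of the array files, whose exon annotation was not used here). A second Psme4 probe upstream of it gave -0.36 ± 0.07 in total RNA and -0.39 ± 0.32 in polysomal RNA (adjusted p = 0.0729 when every probe was tested), and another, dim probe gave -0.03 ± 0.12 and -0.13 ± 0.18.

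Psmd12, a lid subunit, fell in polysomal RNA and did not pass in total RNA, and the difference between the fractions did not pass either. Its log2 ratio was -0.01, -0.15, -0.19 and -0.25 in total RNA and -1.28, -0.26, -0.87 and -0.42 in polysomal RNA. Polysomal arrays 1 and 3, which correlated least with their fraction, held the lowest values. The mean was -0.71 ± 0.46 (SD, n = 4) in polysomal RNA, 1.64-fold lower (adjusted p = 0.0208). The total RNA mean was -0.15 ± 0.10 (adjusted p = 0.609). The difference between the fractions was -0.56 on the log2 scale (95% interval -1.03 to -0.08, adjusted p = 0.847). Without polysomal array 3 the adjusted p was 0.0623, and without array 4 it was 0.0529, while with arrays 2 and 4 averaged it was 0.0387. The value comes from the Psmd12 probe of highest mean signal, the rule for every gene, at chr11:107313739-107313798 on the plus strand (mm8). A probe that lies just downstream (chr11:107313907-107313966) gave -0.21 ± 0.11 in polysomal RNA (adjusted p = 0.242) and 1 further upstream gave -0.17 ± 0.17 (adjusted p = 0.426). In total RNA the downstream probe was on the other side of 0 (0.11 ± 0.25), and the upstream one was at -0.06 ± 0.30.

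The promoters of both genes that fell are shown because each holds the core of the antioxidant response element, the DNA element through which Nfe2l1 and Nfe2l2 act on proteasome genes. The windows run from 250 bases before to 50 bases after the RefSeq start (GRCm38.p6, all on the plus strand), at chr11:30771525-30771824 for Psme4, chr11:107479278-107479577 for Psmd12 and chr17:34197945-34198244 for Psmb8, which is set beside them as the immunoproteasome gene with the highest ratios. Capitals mark matches, on either strand, to TGACNNNGC (the antioxidant response element core), CCAAT (the CCAAT box) or GAAANNGAA (a pair of interferon response half-sites).
Psme4: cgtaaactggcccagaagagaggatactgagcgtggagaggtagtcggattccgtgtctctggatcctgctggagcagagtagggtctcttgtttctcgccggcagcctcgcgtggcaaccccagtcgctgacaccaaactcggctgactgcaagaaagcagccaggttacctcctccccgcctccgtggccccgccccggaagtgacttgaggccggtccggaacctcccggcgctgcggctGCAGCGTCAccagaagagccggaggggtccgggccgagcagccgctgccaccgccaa
Psmd12: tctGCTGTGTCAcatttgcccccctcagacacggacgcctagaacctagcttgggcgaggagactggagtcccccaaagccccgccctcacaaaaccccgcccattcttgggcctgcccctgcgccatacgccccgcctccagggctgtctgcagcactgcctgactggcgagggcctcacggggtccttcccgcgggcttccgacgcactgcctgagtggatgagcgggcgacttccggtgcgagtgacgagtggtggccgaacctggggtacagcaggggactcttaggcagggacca
Psmb8: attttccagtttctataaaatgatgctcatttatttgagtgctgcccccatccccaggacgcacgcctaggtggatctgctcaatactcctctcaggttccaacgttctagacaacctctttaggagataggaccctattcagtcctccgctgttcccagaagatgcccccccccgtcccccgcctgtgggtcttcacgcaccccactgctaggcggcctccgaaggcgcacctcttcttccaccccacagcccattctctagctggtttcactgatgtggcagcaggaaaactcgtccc
Psme4 and Psmd12 had 1 match to the antioxidant response element core each, and Psmb8 had none to any of the 3 motifs. A window was found for 36 of the 42 proteasome genes, with 39 windows in all. The antioxidant response element core was in 15.4% of these windows (Psmb5, Psmb6, Psmc6, Psmd9, Psmd12 and Psme4) against 12.4% of 32851 windows of all genes. The CCAAT box was in 33.3% against 37.4%. The interferon pair was in 15.4% against 8.56% (Psmb3, Psmb4, Psmc2, Psmd4, Psmd9 and Psme1), and not in those of Psmb8, Psmb9 or Psmb10. A match describes the letters in the window and does not show that a factor binds there.

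Psmc3ip, the recombination factor that is not a proteasome subunit, was the 1 name that rose. Its log2 ratio was 0.48, 0.45, 0.69 and 0.58 in polysomal RNA and 0.03, 0.33, 0.13 and 0.60 in total RNA. The 4 polysomal values lay close together and above 0. The mean there was 0.55 ± 0.11 (SD, n = 4, adjusted p = 0.0144), while total RNA gave 0.27 ± 0.25 (adjusted p = 0.165). A second probe gave 0.395 ± 0.109 in polysomal RNA (adjusted p = 0.0342 when every probe was tested). The call was lost without polysomal array 4 (adjusted p = 0.0707) and with polysomal arrays 2 and 4 averaged (0.56, adjusted p = 0.0564). Psmc3ip is left out of all counts of proteasome genes that follow.

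Over the 42 proteasome genes, values below 0 outnumbered those above. In total RNA 31 of 42 genes (73.8%) had a mean log2 ratio below 0, with a median of -0.16, against 58% and -0.04 for all tested genes. In polysomal RNA 32 of 42 (76.2%) were below 0, with a median of -0.13, against 46.8% and 0.02. The proteasome median was below that of all genes in both fractions under each of 21 settings run. With arrays centred over all spots and no loess, all genes in total RNA had a median of -0.78 and the proteasome genes one of -1.09, and centred over the tested genes they had -0.05 and -0.36. On single arrays the shift was uneven. On polysomal array 3 the proteasome median was 0.09, above that of all genes (-0.006), and 20 of 42 genes were below 0. On total RNA array 4 it was -0.065 against -0.053 for all genes. On each of the remaining arrays it was also below that of all genes. Of the 42 genes, 12 (28.6%) were below 0 on all 4 total RNA arrays, against 21.5% of all genes. On all 4 polysomal arrays 7 (16.7%) were, against 14.7% of all genes. Only Psme4 and Psmd12 were below 0 on all 8 arrays and only Psmb8 above 0 on all 8, which is 4.76% and 2.38% of the members against 7.85% and 6.15% of all genes.

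The constitutive 20S core had 14 genes. None passed the test in either fraction. In total RNA 9 of 14 were below 0 with a median of -0.11, and in polysomal RNA 11 of 14 with a median of -0.23. The alpha ring, which gates the barrel, ran from Psma4 (-0.27 ± 0.15) to Psma2 (0.13 ± 0.65) in total RNA and from Psma5 (-0.34 ± 0.29) to Psma3 (0.25 ± 0.36) in polysomal RNA. Psma2 had the widest spread of the alpha genes, at 0.76 on total RNA array 1 and -0.77 on array 4. In the beta ring, the subunits Psmb3 and Psmb4 had total RNA means of 0.10 ± 0.08 and 0.02 ± 0.11, and polysomal means of -0.23 ± 0.65 and -0.32 ± 0.40. On polysomal array 1 Psmb3 was at -1.19, and the other 3 arrays lay between 0.01 and 0.20.

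All 3 constitutive catalytic genes had means below 0 in both fractions, and none passed the test. Psmb7, the subunit of trypsin-like activity, had the lowest adjusted p of all members in total RNA (0.0597), with -1.18, -0.66, -0.56 and -0.08 on arrays 1 to 4 and a mean of -0.62 ± 0.45 (SD, n = 4). All 4 arrays were below 0, and array 4 was close to it. Without total RNA array 4 the mean was -0.80 and the adjusted p 0.0425. In polysomal RNA Psmb7 was -0.22 ± 0.24. Psmb5, the subunit of chymotrypsin-like activity, was -0.20 ± 0.18 in total RNA and -0.34 ± 0.29 in polysomal RNA. Psmb6, the subunit of caspase-like activity, was near 0 on total RNA arrays 1 to 3 and at -1.04 on array 4, and it was at -1.05 and -0.84 on polysomal arrays 1 and 3 and within 0.10 of 0 on arrays 2 and 4. The highest polysomal mean of the beta ring was that of Psmb1 (0.05 ± 0.16).

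The immunoproteasome genes lay on the other side of 0 in total RNA. All 5 (Psmb8, Psmb9, Psmb10, Psme1 and Psme2) had means above 0 there, with a median of 0.13, and 3 of 5 did in polysomal RNA, with a median of 0.04. None passed the test in either fraction. Psmb8, which takes the place of Psmb5, was at 0.14, 0.90, 0.20 and 0.79 in total RNA and at 0.12, 0.45, 0.84 and 0.60 in polysomal RNA, above 0 on all 8 arrays. Its means were 0.51 ± 0.39 (adjusted p = 0.0960) and 0.51 ± 0.30 (adjusted p = 0.0771). Without polysomal array 1 the polysomal mean was 0.63 and passed (adjusted p = 0.0481). Centred over all spots with no loess, all 5 genes were below 0 in total RNA, with Psmb8 at -0.41. That setting put the median of all genes at -0.78. Centred over the tested genes with no loess, Psmb10, Psme1 and Psme2 were below 0 in total RNA (-0.12, -0.07 and -0.03). A second Psmb8 probe gave 0.35 ± 0.44 and 0.58 ± 0.44.

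Psmb9, which takes the place of Psmb6, was at 0.77, 0.36, 0.17 and -0.51 in total RNA and at -0.69, 0.50, 0.20 and 0.74 in polysomal RNA. Psmb10, which takes the place of Psmb7, was at 0.18, 0.29, -0.45 and 0.30 in total RNA and at -0.81, 0.04, 0.14 and 0.13 in polysomal RNA. Each gene had 1 array per fraction that lay below 0 while the others lay above, and polysomal array 1 was that array for both. The same array was the lowest for the PA28 subunits Psme1 (-0.60, others 0.09 to 0.49) and Psme2 (-0.88, others -0.14 to 0.02). In total RNA the means of Psme1 and Psme2 were 0.13 ± 0.06 and 0.13 ± 0.21.

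Set against the constitutive subunit of the same catalytic site on the same array, the immunoproteasome subunit had the higher log2 ratio nearly throughout. The difference Psmb8 minus Psmb5 was 0.37, 0.84, 0.49 and 1.11 in total RNA and 0.87, 0.56, 1.20 and 0.76 in polysomal RNA, with means of 0.70 ± 0.34 and 0.85 ± 0.27 (SD, n = 4). It was above 0 on 8 of 8 arrays. Psmb9 minus Psmb6 was also above 0 on 8 of 8 arrays, with means of 0.44 ± 0.27 and 0.68 ± 0.32. Psmb10 minus Psmb7 was above 0 on 7 of 8 arrays, with a mean of 0.70 ± 0.565 in total RNA. In polysomal RNA its mean was 0.10 ± 0.48 and ran from -0.03 to 0.31 as each array was left out. The polysomal values were -0.56, 0.47, 0.02 and 0.45, and with no loess 2 of 4 were above 0. The Psmb8 and Psmb9 differences ran from 0.44 to 0.85 with loess, with no loess, with no background correction and with the scanner's processed signals, although with the latter Psmb9 was above Psmb6 on 3 of 4 polysomal arrays. These differences were chosen after their values were seen and were not tested. They do not tell which of the pair changed, and an unequal change of the paired genes cannot be told apart from a dye preference of either probe.

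**Figure D2:**
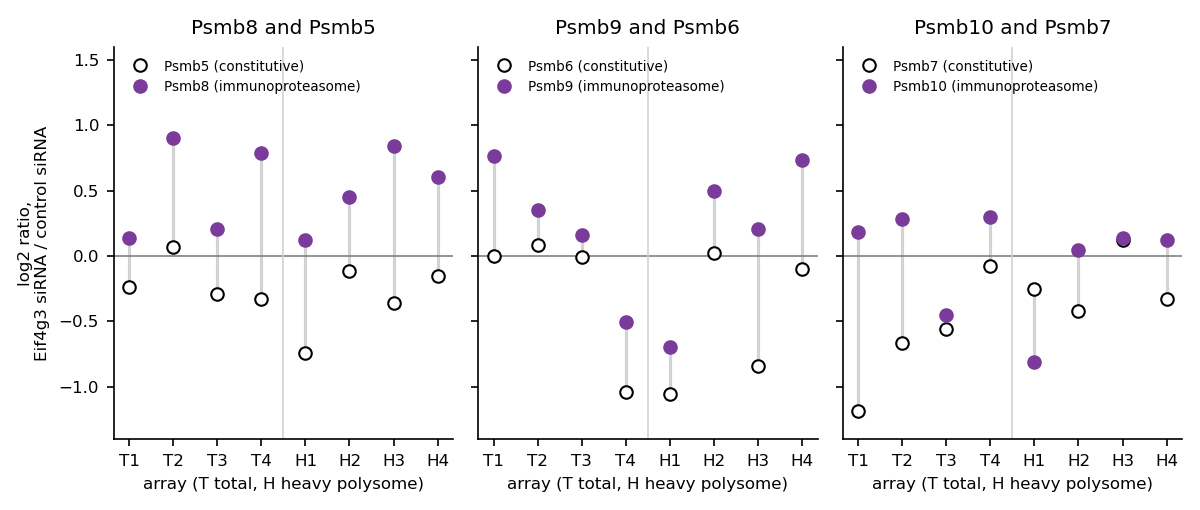
Log2 ratio of Eif4g3 siRNA over control siRNA (y axis) on each total RNA (T) and polysomal (H) array (x axis) for the constitutive catalytic subunit (open circle) and the immunoproteasome subunit of the same site (filled circle). The filled circle is the higher one on all 8 arrays for Psmb8 and Psmb9 and on 7 of 8 for Psmb10.

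The levels of the catalytic immunoproteasome genes Psmb8, Psmb9 and Psmb10 also differed between arrays, in both siRNA groups. On the log2 scale of single-channel signal, in control siRNA cells, Psmb8 was at 10.49, 8.9996, 9.26 and 12.30 in total RNA (arrays 1 to 4) and at 12.03, 10.55, 9.52 and 12.19 in polysomal RNA. In Eif4g3 siRNA cells the same arrays gave 10.63, 9.90, 9.46 and 13.09, and 12.15, 11.001, 10.36 and 12.80. The highest and lowest arrays differed 9.85-fold in control cells and 12.3-fold in Eif4g3 siRNA cells, and arrays high in one group were high in the other. The groups are the channels of the same spots, so a difference between arrays or spots enters both, and they are not independent here. The SD of Psmb8 between arrays of a fraction was 1.39 in control cells, larger than that of 99.7% of tested genes, and it was 1.11 for Psmb9 (99.3%) and 0.82 for Psmb10 (97.3%). The PA28 genes spread less, at 0.64 for Psme1 (92.8%) and 0.47 for Psme2 (79.4%) in control cells and at 0.48 (70%) and 0.38 (50.3%) in Eif4g3 siRNA cells. The 35 genes of the constitutive core, cap, its chaperones and the inhibitor had a median SD of 0.37, against 0.32 for all genes. Some of them spread as widely as Psmb10: the lid gene Psmd13 had an SD of 0.84 in control cells (97.7%) and the core gene Psmb2 one of 0.81 in Eif4g3 siRNA cells (95.9%). Psmb5, the counterpart of Psmb8, lay between 13.56 and 14.54 in control cells.

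Within each fraction, arrays 1 and 4 held both highest Psmb8 and Psmb9 levels and arrays 2 and 3 both lowest, in both siRNA groups. Psmb10, Psme1 and Psme2 had this split on the polysomal arrays of both groups and not in total RNA, where array 2 was among the highest pair of each in control cells. Some constitutive genes had the split in total RNA only: Psmb6 in control cells, and the lid genes Psmd3 and Psmd12 in both siRNA groups. Psmb5 and Psmb7 did not have it in either fraction. The share of all genes with this split was not computed. Among genes of antigen presentation and its control, Tap1 had the same split in both siRNA groups and Irf1 in control cells, while Tap2 and B2m did not have it. Tap1, a subunit of the transporter that carries peptides into the endoplasmic reticulum, was at 7.65 and 7.71 on total RNA arrays 1 and 4 and at 6.56 and 6.60 on arrays 2 and 3 in control cells. On the polysomal arrays it was at 7.29 and 7.89 on arrays 1 and 4 and at 7.04 and 6.69 on arrays 2 and 3. In Eif4g3 siRNA cells Tap1 was well above background on only 2 of the 4 total RNA arrays. Isg15, an interferon-induced ubiquitin-like protein picked after its values were seen, was at 11.86 and 13.28 on total RNA arrays 1 and 4 and at 8.64 and 8.14 on arrays 2 and 3. Total RNA arrays 1 and 4 shared a slide, while polysomal arrays 1 and 4 lay on different slides that they shared with arrays 2 and 3. The part of the slide in these levels was not tested. Knockdown ratios are taken within an array, and comparisons of polysomal with total RNA are not.

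**Figure D3:**
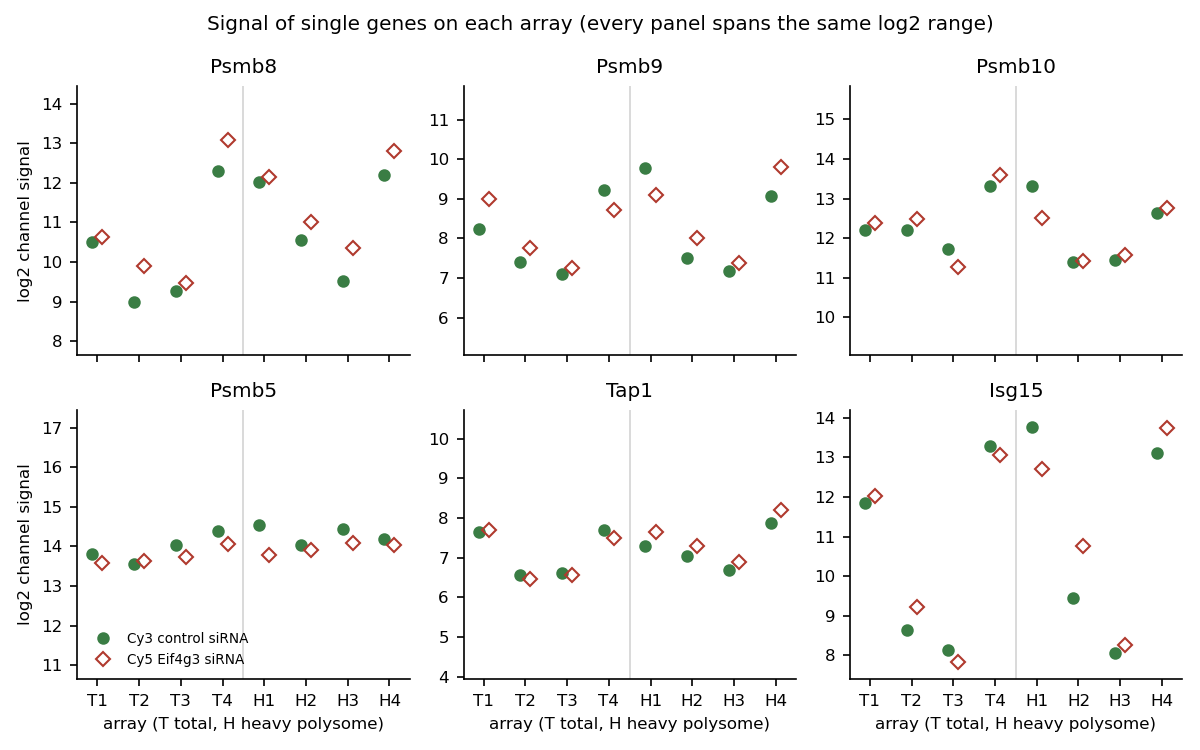
Log2 single-channel signal (y axis, every panel spanning the same range) of 6 genes on each total RNA (T) and polysomal (H) array (x axis), in control siRNA cells (green circles) and Eif4g3 siRNA cells (red diamonds). Psmb8 spans 8.9996 to 12.30 in control cells and Psmb5 13.56 to 14.54.

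Means of the 19S cap genes lay mostly below 0. In total RNA 16 of 17 cap genes were below 0, with a median of -0.26, and in polysomal RNA 15 of 17 with a median of -0.11. All 8 lid genes had means below 0 in both fractions, from Psmd13 to Psmd8 (-0.02 ± 0.12) in total RNA. Psmd12 in polysomal RNA was the 1 cap gene that passed. Psmd13, a lid subunit, had the lowest total RNA mean of all members, -0.68 ± 0.30 (adjusted p = 0.171), with all 4 arrays below 0. In polysomal RNA the arrays of Psmd13 disagreed, from -0.81 on array 3 to 1.19 on array 1. Psmd6, another lid subunit, was at -0.36 ± 0.41 and -0.47 ± 0.31 (adjusted p = 0.101 in polysomal RNA), and Psmd14, the deubiquitinase of the lid, at -0.34 ± 0.31 and -0.26 ± 0.39.

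In the base, 8 of 9 genes had total RNA means below 0, from the ATPase Psmc1 (-0.34 ± 0.45) to Psmc6 (0.04 ± 0.23), and 7 of 9 had polysomal means below 0, from Psmc4 (-0.23 ± 0.43) to the scaffold Psmd1 (0.08 ± 0.39). Of its non-ATPase genes the ubiquitin receptor Psmd4 was at -0.30 ± 0.31 in total RNA and the scaffold Psmd2 at -0.21 ± 0.23 in polysomal RNA. Second probes lay lower than the probe in use in total RNA for Psmc5 (-0.87 ± 0.43 against -0.15 ± 0.35), Psmd2 (-0.65 ± 0.30 against -0.23 ± 0.17) and Psmc4 (-0.59 ± 0.47 against -0.29 ± 0.16). A dim second probe of Psmd4 lay nearer 0 (-0.04 ± 0.18). None of these probes passed in total RNA when every probe was tested. The array medians of the base spread widely. The total RNA median was -0.67 on total RNA array 1, -0.24 and -0.29 on arrays 2 and 3 and 0.13 on array 4. On the polysomal arrays it was 0.13, -0.26, 0.28 and -0.19. Psmc1 was at -0.93, -0.36, -0.20 and 0.13 in total RNA and at 0.13, -0.46, 0.39 and -0.36 in polysomal RNA. Psmd1 ran from -1.09 to 0.50 in total RNA. The constitutive core had another order, with its lowest medians on polysomal arrays 1 and 3 (-0.41 and -0.25) and its highest on total RNA array 1 (0.09). The base was highest on the 3 arrays that correlated least with their fraction (total RNA 4, polysomal 1 and 3), and the core lowest. Without these 3 arrays, 17 of 43 names passed in total RNA, where 21.8% of all genes then did, and 6 in polysomal RNA, where 16.4% did. The 3 arrays were picked by their correlation in these same ratios, so a narrower spread follows from the choice. Polysomal RNA was then left with only arrays 2 and 4, the pair most alike (r = 0.883).

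**Figure D4:**
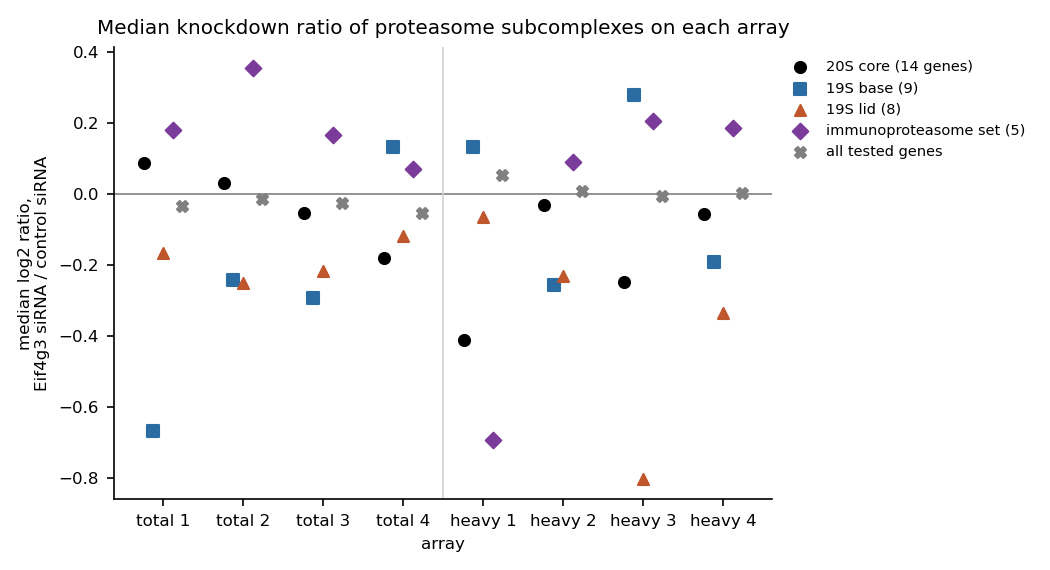
Median log2 ratio of Eif4g3 siRNA over control siRNA (y axis) of the constitutive 20S core, the 19S base, the 19S lid, the immunoproteasome set and all tested genes on each array (x axis). The base lies at -0.67 on total RNA array 1 and above 0 on total RNA array 4 and polysomal arrays 1 and 3, and the median of all genes stays between -0.05 and 0.05.

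The chaperones that assemble the cap, the remaining activator and the inhibitor gave no call. Psmd5 and Psmd10 were at -0.28 ± 0.18 and -0.29 ± 0.24 in total RNA and at -0.14 ± 0.37 and -0.13 ± 0.25 in polysomal RNA. Psmd9 was at -0.13 ± 0.34 and 0.15 ± 0.29. Psme3, the nuclear PA28 subunit, was at -0.10 ± 0.12 and 0.19 ± 0.32. Psmf1, the inhibitor PI31, was at -0.46 ± 0.40 in total RNA (adjusted p = 0.103), where array 1 (-1.04) lay lowest, and at -0.13 ± 0.20 in polysomal RNA. The chaperones of the core ring, Psmg1, Psmg2 and Psmg3, stand on the array under older names that the rule does not take in. Their means were 0.00 ± 0.42, -0.08 ± 0.11 and -0.41 ± 0.52 (total RNA) and -0.12 ± 0.34, -0.05 ± 0.44 and -0.18 ± 0.28 in polysomal RNA, and none passed.

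The effect of the siRNA was not detectably different between fractions for any member. Of all 14483 genes, 0 (0%) passed limma's test of polysomal minus total RNA, with 756 (5.22%) at an unadjusted p under 0.05 and a lowest adjusted p of 0.847. Of the 43 names 1 was under 0.05 unadjusted. The proteasome genes were split evenly, 21 above and 21 below 0, with a median of 0.01 against 0.06 for all genes. The furthest from 0 were Psmd12 (-0.56) and Psmd13 (0.63, 95% interval -0.22 to 1.47). The unadjusted 95% intervals of the difference reached 0.47 to either side at the median and 0.33 to 0.84 over the 42 genes, and the interval of Psmd12 left out 0 although its adjusted p did not pass.

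Proteasome transcripts tended to have a higher signal in polysomal RNA than in total RNA, in both siRNA groups, though no single gene passed. In control siRNA cells 38 of 42 genes (90.5%) were above 0 for polysomal minus total RNA, with a median log2 difference of 0.35, against 47.1% and -0.02 for all tested genes. In Eif4g3 siRNA cells 35 of 42 (83.3%) were above 0, with a median of 0.33, against 52.2% and 0.02. These comparisons share their arrays and loess fit and are not independent. Each slide held 1 fraction, so a difference between slides or their scans cannot be told apart from one between fractions. Of all genes, 2.19% passed limma's test in control cells and 0.152% in Eif4g3 siRNA cells, and of the members 0 did in either (unadjusted p under 0.05 for 5 and 7 of 43). Most calls over all genes ran the other way from the members, with 315 genes lower and 2 higher in control cells and 22 lower and 0 higher in Eif4g3 siRNA cells. Signals were scaled within each array, so a difference is relative to the other transcripts of the same RNA. Under quantile normalization of the channels the medians were 0.38 and 0.26.

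All 17 cap genes and 13 of 14 core genes were above 0 in control cells. The core subunit Psmb1 had the highest difference, 0.93 in control cells (95% interval 0.12 to 1.75, adjusted p = 0.315) and 1.14 in Eif4g3 siRNA cells (0.39 to 1.89, adjusted p = 0.223). In Eif4g3 siRNA cells its log2 signal was 13.55, 12.96, 13.12 and 12.13 in total RNA and 13.91, 13.58, 14.70 and 14.13 in polysomal RNA, so all 4 polysomal arrays lay above all total RNA arrays. The same held for Psma4 in Eif4g3 siRNA cells and for Psmb7 in control cells, where Psmb7 was at 11.71, 11.88, 11.67 and 11.99 in total RNA and at 12.39, 12.10, 12.41 and 12.18 in polysomal RNA. These were 1 of 42 members in control cells and 2 of 42 in Eif4g3 siRNA cells, or 2.38% and 4.76%, and 1.47% and 2.77% of all genes lay apart in that direction. Psmd12 was at 0.46 in control cells and -0.10 in Eif4g3 siRNA cells. Genes below 0 in control cells were Psme3 (-0.37), Psmb10 (-0.16), Psmd10 (-0.12) and Psmb2 (-0.06). The immunoproteasome gene Psmb8 was at 0.81 in both groups, with a 95% interval from -0.97 to 2.59 in control cells.

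**Figure D5:**
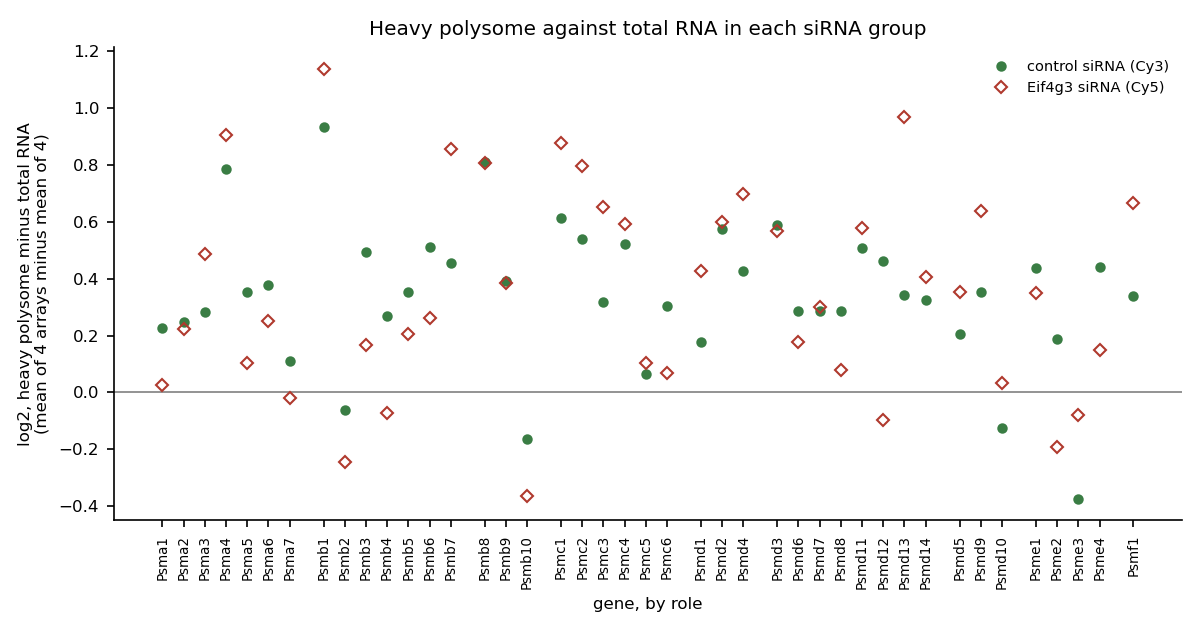
Log2 signal of polysomal RNA minus total RNA (y axis, mean of 4 arrays minus mean of 4) for each of the 42 proteasome genes (x axis, grouped by role) in control siRNA cells (green circles) and Eif4g3 siRNA cells (open red diamonds). Most genes lie above 0 in both groups, with Psmb1 highest at 0.93 and 1.14.

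Of 28 further genes that supply, regulate or assist the proteasome, 1 rose and 1 fell in total RNA (2 of 28, against 4.38% of all genes), and 1 rose and 2 fell in polysomal RNA (3 of 28, against 8.91%). Ubqln1, a shuttle that brings ubiquitinated proteins to the proteasome, rose in both fractions (0.73 ± 0.23, adjusted p = 0.0109, and 0.58 ± 0.16, adjusted p = 0.0120), with all 8 arrays above 0. Uba1, the main ubiquitin-activating enzyme, fell in total RNA (-0.88 ± 0.41, adjusted p = 0.0281). In polysomal RNA Vcp, the segregase that pulls ubiquitinated proteins from complexes and membranes, was at -0.69, -0.55, -0.59 and -0.50 and fell (adjusted p = 0.00465). Ddi2, the protease that activates Nfe2l1, fell there too (-0.48 ± 0.17, adjusted p = 0.0313). Nfe2l1 itself, the transcription factor that raises proteasome genes when the proteasome is short, was at -0.51 ± 0.43 and -0.50 ± 0.26 and did not pass (adjusted p = 0.0999 and 0.0822). The core assembly factor Pomp (-0.24 ± 0.23 and -0.06 ± 0.29) and the ubiquitin receptor Adrm1 (0.19 ± 0.20 and 0.19 ± 0.25) did not pass either. The list's median was -0.01 in total RNA and -0.085 in polysomal RNA, against -0.04 and 0.02 for all tested genes.

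Of the genes that work with the immunoproteasome in antigen presentation, Irf1, Tap1, Tap2 and B2m were tested and none of these 4 passed in either fraction. Tap1, the peptide transporter subunit encoded beside Psmb9, was at -0.07 ± 0.12 in total RNA and 0.28 ± 0.07 in polysomal RNA (adjusted p = 0.0666). B2m, the light chain of MHC class I, was at 0.28 ± 0.18 and 0.23 ± 0.35. Among markers of myeloid cells, in which the immunoproteasome is constitutive, Csf1r was lower in total RNA (-0.57 ± 0.30, adjusted p = 0.0447) and did not pass in polysomal RNA (-0.35 ± 0.25, adjusted p = 0.129). Trem2 was lower in polysomal RNA (-1.39 ± 0.71, adjusted p = 0.0165) and did not pass in total RNA (-0.80 ± 0.64, adjusted p = 0.131). Lyz2 was at -0.04 ± 0.29 and 0.05 ± 0.30, and Cd68 at -0.23 ± 0.14 and -0.50 ± 0.54, and neither passed. Of the 10 haematopoietic markers on the array 6 were tested, 1 passed as lower in each fraction and 0 as higher, which is 16.7% of them in each fraction, against 4.38% and 8.91% of all genes, with list medians of -0.19 and -0.26. Of the 10 fibroblast markers tested, 1 was lower and 0 were higher in total RNA, and 4 were lower and 1 was higher in polysomal RNA (50%, against 8.91% of all genes), with medians of -0.27 and -0.28. Those lower in polysomal RNA were the receptors Pdgfra (-0.65 ± 0.13, adjusted p = 0.0109) and Pdgfrb (-0.47 ± 0.17, adjusted p = 0.0453) and the collagen genes Col1a1 (-0.67 ± 0.36, adjusted p = 0.0229) and Col1a2 (-0.42 ± 0.09, adjusted p = 0.0462). Col1a2 was also the 1 that was lower in total RNA (-0.46 ± 0.285, adjusted p = 0.0493), and the chemokine gene Cxcl12 was the 1 that was higher (0.78 ± 0.47, adjusted p = 0.0197, in polysomal RNA). The part of either cell type in the proteasome values was not tested.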

How the data were processed

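Each of 8 arrays (2 colours, 41174 probes) compared Eif4g3 siRNA in Cy5 with control siRNA in Cy3, on total RNA or polysomal RNA (4 arrays each). The deposited scanner intensity values, the spot mean and local background of each channel, came from Agilent Feature Extraction, per the file headers and the submitters' processing notes (1 total RNA array was read with another version than the other 7). The log10 ratio per spot in these files was computed from processed signals, per the file headers. The deposited log2 value table held the Cy5 over Cy3 processed signals of the same arrays within 0.01 for 100% of probes, with array medians from -0.208 to 0.305, so it was not centred.

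Intensities were background-corrected (normexp, offset 50), normalized within arrays by loess (span 0.3) and averaged over spots of a probe in limma 3.58.1 (R 4.3.3), with marked spots left out. Probes were kept if well above background in 1 or more channels on at least 3 of 4 arrays of a fraction, and the probe of highest mean signal stood for its gene. lmFit and eBayes were fitted over all 14483 genes and all 8 arrays, with Benjamini-Hochberg adjustment over all genes and a threshold of 0.05. Single channels were compared between fractions after Aquantile normalization, with lmFit and eBayes fitted to each channel separately. The script was tested on simulated data. All 43 tested names were well above background in both channels of all arrays, so no value is a bound. The number of arrays limits the precision.

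Members past the threshold, the immunoproteasome genes and their counterparts were named with array values. The extremes of each role group, and genes whose probes differed in sign, were named with means and SDs. Members, lists of related genes and cell type markers (fibroblast, endothelial, blood cell, epithelial) were chosen with earlier results of these data known. One listed gene is not reported here. Replicate numbers were not taken as pairs across fractions, since the labels do not say whether same-numbered arrays share cells. Correlations of same-numbered deviations of the log2 ratios were -0.016, 0.172, -0.11 and -0.297, which cannot decide it. Alternatives covered background correction, normalization, probe filter and choice, slide, replicate block and arrays left out. Promoter windows were taken from RefSeq (GRCm38.p6) by symbol, and 80.2% of probes matched a RefSeq gene.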

Additional observations from a re-analysis of the deposited data

Results flagged for a closer look

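In 11 of the 86 groups of 4 arrays (12.8%), 1 array lay far from the other 3 in the log2 ratio of a member, by Dixon's test at the 95% level. Chance marks about 1 in 20 such groups, and the same arrays enter all of them. On polysomal array 1, Psmb10 was at -0.812 (the others 0.0449 to 0.141) and Psmb3 at -1.19 (0.0125 to 0.2). On polysomal array 3, the base scaffold Psmd2 was at 0.136 (-0.364 to -0.301) and the lid subunits Psmd3 and Psmd8 were at 0.164 (-0.471 to -0.426) and -1.09 (-0.0255 to 0.172). On total RNA array 1, Psme3 was at -0.281 (-0.0562 to -0.0143). On total RNA array 3, Psmb10 was at -0.451 (0.181 to 0.299) and the core subunit Psmb4 at -0.138 (0.0493 to 0.0873). On total RNA array 4, Psmb6 was at -1.04 (-0.0085 to 0.0873), the ATPase Psmc5 at 0.37 (-0.376 to -0.273) and Psmd2 at 0.023 (-0.342 to -0.297). Of the 11, 8 lay on the 3 arrays that correlated least with their fraction. The high ones there were the base genes Psmd2 (on both fractions' arrays) and Psmc5 and the lid gene Psmd3, and the low ones Psmb3, Psmb6, Psmb10 and Psmd8. None of these genes passed the test in either fraction.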

How the results depend on the processing

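The number of members past the threshold moved with the processing, and so did the share of all genes. In total RNA (0 of 43), the processed signals and the deposited log2 ratios gave 3 each (Psmb7, Psmb8 and Psmf1; 10.2% and 10% of all genes), slide as a random block 3 (Psmb7, Psme4 and Psmf1; 10.2%, with an estimated slide correlation of -0.27), the strict filter on dim probes 1 (Psmb7), the mean of all probes 1 (Psmc4), the fraction fitted alone 1 (Psmd13), and leaving out the 3 arrays of lowest correlation 17 (21.8%). In polysomal RNA (3 of 43) the same settings gave 6 with processed signals, 5 with the deposited ratios, 6 with slide as a block (17.9%), 1 with the fraction alone (Psmc3ip) and 6 without the 3 arrays. Those 3 arrays were picked by these same ratios, and without them polysomal RNA had only arrays 2 and 4. With polysomal arrays 2 and 4 averaged, 2 passed (Psmd12 and Psme4; 3% of all genes). Median centring without loess gave 0 there, over all spots as over tested genes. Leaving out each array in turn gave 0 to 2 members in total RNA and 1 to 4 in polysomal RNA. The lowest polysomal count was without polysomal array 4, which left Psme4, and in total RNA Psmb7 passed without total RNA array 4 and without polysomal array 1 or 3. The cause was not tested. Every other comparison gave 0 members under all settings, and no value past the threshold changed sign. Of 1034 values of named members under other settings, 56 changed sign, none past the threshold under either setting; 15 of these came from centring over all spots, where Psmb8 in total RNA was at -0.41.

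With the replicate number as a block, 0 members passed in the 3 comparisons across fractions, as without it (0.421% and 0.069% of all genes in the fractionation of control and Eif4g3 siRNA cells). The labels do not say whether same-numbered arrays share cells, and correlations over all genes cannot decide it. Those of same-numbered level deviations ran from -0.315 to 0.439 in control cells and from 0.000346 to 0.243 in Eif4g3 siRNA cells. Single genes such as Psmb8 and Psmb9 did have their high levels on the same numbers in both fractions. The differences between catalytic partners and the level spreads were chosen after seeing the data, and so were their alternatives. Under quantile normalization the level SD was 1.38 for Psmb8, 1.13 for Psmb9 and 0.805 for Psmb10. Signals over background did not limit any tested member, whereas 4 arrays a fraction left a median 95% half-width of 0.33 in a log2 ratio.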

Other observations

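Of the 16 member names with more than 1 tested probe, probes differed in sign in 5 in total RNA and in 4 in polysomal RNA. For Psmf1, the inhibitor PI31, a second probe gave 0.17 ± 0.23 and 0.27 ± 0.17 and another -0.12 ± 0.09 and 0.14 ± 0.28 (total RNA, then polysomal RNA), where the probe in use gave -0.46 ± 0.40 and -0.13 ± 0.20. For the lid subunit Psmd7 the probe in use gave -0.08 ± 0.14 and -0.07 ± 0.26, and the others 0.11 ± 0.26 and 0.03 ± 0.13, and -0.42 ± 0.51 and -0.25 ± 0.35. The second probe of Psmb3 fell in polysomal RNA (-0.58 ± 0.39, adjusted p = 0.0305 with limma when every probe was tested), and that of Psmd9 was at -0.36 ± 0.13 and -0.07 ± 0.19. For Psme2 the second probe was above 0 in both fractions (0.33 ± 0.16 and 0.06 ± 0.35). The second probe of Psmc6 was at -0.02 ± 0.41 and -0.16 ± 0.86. A gene's value here is thus that of 1 probe, and what sets its probes apart was not tested.

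Among 28 related genes, Sem1, a small subunit of the 19S lid, and Zfand2a, a proteasome-associated protein induced by stress, were lower in polysomal than in total RNA of control siRNA cells (-1.008, adjusted p = 0.0280, and -1.003, adjusted p = 0.0183, with limma). They are 7.14% of the list, and over all genes 2.19% passed there, 315 lower and 2 higher. All 17 cap genes of the name rule were above 0 in that comparison.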
